A study of Mus musculus with 14 samples.

Results

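Genes of the PBX and MEIS cofactor families, 6 of 18194 named on the array, were followed across mouse liver sinusoidal endothelial cells (LSEC), lung endothelial cells and thymus: Pbx2, Pbx3, Meis1, Meis2, Meis3 and Pknox1. Members were all probe sets whose single gene symbol in the array annotation is one of these names, 16 of 45101 probe sets on the array, of which 3 belong to Pbx2, 2 to Pbx3, 3 to Meis1, 4 to Meis2, 1 to Meis3 and 3 to Pknox1. None of the 932 probe sets with several symbols held a member's name. The study hybridised RNA from 14 samples to Affymetrix mouse whole-genome arrays, each sample to its own array. Cre+ samples carried the MxCre transgene (MxCre+) and controls lacked it (MxCre-), and there were 2 Cre+ and 2 control samples of thymus, 3 and 3 of LSEC, and 2 and 2 of lung endothelial cells. All samples, controls included, came from mice of the FVBn background with floxed (L/L) alleles at Fk1, Fk2 and Afx, the older names of Foxo1, Foxo3 and Foxo4. MxCre is a Cre recombinase under the interferon-inducible Mx promoter, which acts in many cell types rather than in endothelium alone. The labels used here give neither age, the induction of Cre, the way cells were isolated, nor whether replicates came from separate animals, so every p-value measures the spread between these samples, which may be technical.

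PBX and MEIS proteins are homeodomain transcription factors of the TALE class, named for an extra loop of amino acids inside the homeodomain. PBX proteins bind DNA together with HOX proteins, and MEIS proteins or PKNOX1 (also called PREP1) join PBX, which keeps PBX in the nucleus and adds a DNA contact. MEIS1 is best known in blood stem cells and megakaryocytes and as a partner of HOX proteins in leukaemia, and MEIS2 in the development of the heart, neural crest and limbs. FoxO factors are forkhead transcription factors that insulin and growth factor signalling keep out of the nucleus.

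Values are log2 levels per probe set after quantile normalization. A probe set was tested where its highest tissue mean reached 6.38, the 40th percentile of all probe sets, a limit called the dim limit here. All 16 members passed, as did 30821 probe sets in all. Meis2 1440091_at passed through LSEC alone, so it had to differ between tissues. Each probe set has its own affinity, so levels of different probe sets served only to pick or describe the brightest of a gene, not to compare amounts of RNA. Genotype effects and their differences come from limma with Benjamini-Hochberg adjustment over all probe sets tested, at a threshold of 0.05, and intervals are 95% intervals of a single comparison without that adjustment.

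The deposited arrays had medians between 6.75 and 7.04, replicate arrays had r of 0.967 to 0.986 once normalized, and 223 to 312 values per array stood at 0. In Cre+ against control LSEC, 3 Foxo1 probe sets were lower by log2 differences of -0.93 to -3.56, Foxo4 1456753_at by -2.15, and 2 of 3 Foxo3 probe sets by -0.53 and -0.58. The other Foxo4 probe set, 1422149_at, differed by -0.10 and did not pass (limma adjusted p = 0.818). Foxo1 1456529_at, too dim to be tested, was 4.42 in Cre+ and 2.70 in control LSEC. In thymus Foxo4 1456753_at differed by -3.24 and 2 Foxo1 probe sets passed with -1.19 and -1.80, but Foxo3 1434832_at was higher in Cre+ thymus, by 0.68 (limma adjusted p = 0.0278). Foxo4 1422149_at differed by -0.07 there (limma adjusted p = 0.953). In lung endothelial cells no FoxO probe set passed, Foxo1 1416982_at standing nearest with -1.06 (limma adjusted p = 0.115). The files do not place these probe sets relative to the deleted exons. Of 8 endothelial markers, all 8 stood at or above the dim limit in the endothelial groups, as did 5 of 5 thymocyte markers on the array in thymus. Thymus samples also held RNA of thymic epithelium, with 5 of 5 markers above the limit, and lung endothelial samples that of lung epithelium, with 4 of 5, and of mesenchymal and mural cells, with 9 of 9. Such counts set the tissues apart only in part. In control LSEC they were 3 of 5 for thymocytes, thymic epithelium and lung epithelium each, and 6 of 9 for mesenchymal and mural cells. In control thymus the mesenchymal count was 8 of 9. LSEC samples held RNA of macrophages, with 5 of 5 markers above the limit and summed levels of 12.72 to 13.61 in Cre+ and 13.06 to 14.07 in control LSEC. Such RNA was not particular to LSEC. The macrophage sums were 13.51 to 13.73 in control lung and 12.04 to 12.14 in control thymus, with 4 of 5 markers above the limit in each. The 3 hepatocyte markers on the array had means above the limit in LSEC of both genotypes, and 1 did in lung of both. Their sums were 9.43 to 9.57 in Cre+ and 9.23 to 9.33 in control LSEC.

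Promoter windows of RefSeq (GRCm38.p6) were at hand for Pbx2, Meis1, Meis2 and Meis3. In control LSEC against control lung endothelial cells, Meis1 1450992_a_at and Meis2 1417129_a_at differed most among members, by -2.92 and 2.39. The other Meis1 probe sets did not follow, with -0.06 and 0.65. The windows of these related genes, Meis1 and Meis2, are shown because of the largest differences. Each is the 250 bases before the start site on which the RefSeq window is built, 5′ to 3′ on the minus strand, at chr11:19018970-19019219 for Meis1 and chr2:116064620-116064869 for Meis2. Both start sites lie inside the gene record of the same assembly, which reaches a further 682 bases upstream for Meis1 and 2918 bases for Meis2, so other starts were not covered. All letters are in lower case, since no searched motif occurs.
Meis1: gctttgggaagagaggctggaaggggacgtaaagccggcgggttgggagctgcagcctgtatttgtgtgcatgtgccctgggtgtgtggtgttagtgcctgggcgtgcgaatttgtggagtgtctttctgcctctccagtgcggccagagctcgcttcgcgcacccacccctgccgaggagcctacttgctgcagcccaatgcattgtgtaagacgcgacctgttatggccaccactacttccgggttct
Meis2: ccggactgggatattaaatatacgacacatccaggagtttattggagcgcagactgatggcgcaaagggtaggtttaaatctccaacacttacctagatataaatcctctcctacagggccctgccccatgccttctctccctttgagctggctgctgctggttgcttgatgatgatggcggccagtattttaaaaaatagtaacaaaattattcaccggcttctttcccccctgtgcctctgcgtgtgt
The 300-base windows, which add 50 bases after the start, were searched on both strands for a FoxO site (TGTTTAC), a MEIS site (TGACAG), a PBX and MEIS composite (TGATTGAC) and a PBX and HOX composite (TGATNNAT). The PBX and MEIS composite ends in the letters with which the MEIS site begins. None of the 4 member windows held any of these, against 3.65%, 19.2%, 0.77% and 8.85% of all 32851 windows for the motifs in that order. That says only that these letters are not in these short windows.

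The first comparison asked how the levels of the cofactors differ among the tissues of control mice. Meis2 was highest in LSEC and lowest in thymus. Meis1, on 1450992_a_at, was highest in lung endothelial cells. Pbx2 and Pknox1 were highest in thymus. Of the 16 probe sets, 15 passed between control thymus and control LSEC (7 higher and 8 lower in thymus), beside 62.3% of all probe sets tested (30.5% higher and 31.8% lower). Between control thymus and control lung endothelial cells 12 passed, 6 each way, beside 57.9% (29.9% higher and 28% lower in thymus). Between control LSEC and control lung endothelial cells 9 passed, 5 higher and 4 lower in LSEC, beside 39.7% (21.5% higher and 18.3% lower). Meis2 1440091_at is among the 8 lower in thymus than in LSEC and the 5 higher in LSEC than in lung. It was tested through LSEC alone, so its passes there carry no weight. These comparisons share control arrays. The median size of the log2 difference was 1.27, 1.16 and 0.657 over the members in these comparisons, beside 0.551, 0.535 and 0.325 over all probe sets tested.

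**Figure D1:**
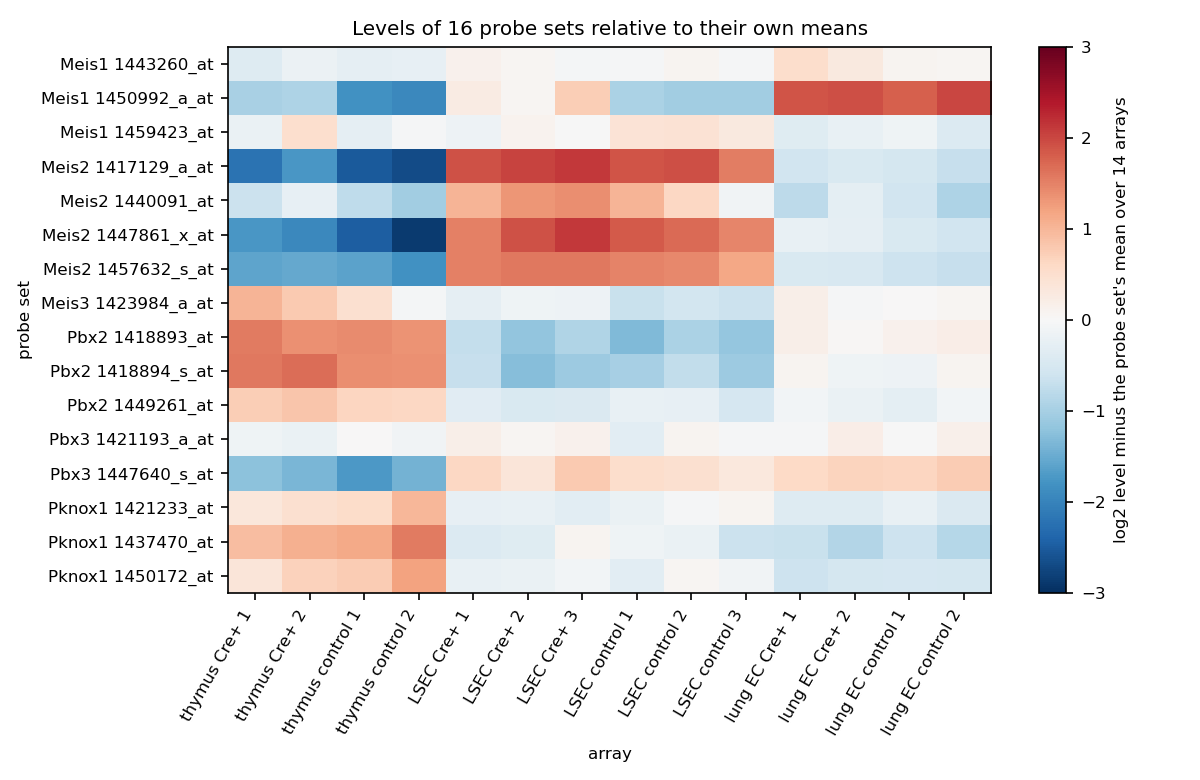
Log2 level of each of the 16 probe sets (rows) on each of the 14 arrays (columns), minus the mean of that probe set over all arrays, so that colours compare arrays within a row only. Values run from -2.87 to 2.12. The Meis2 rows are red in LSEC and blue in thymus, the Pbx2 and Pknox1 rows are red in thymus, and Meis1 1450992_a_at is red in lung endothelial cells.

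Meis1 encodes the MEIS protein with the best known role in blood. On 1450992_a_at its log2 level was 5.04 and 4.94 in control thymus, 5.91, 5.82 and 5.82 in control LSEC, and 8.66 and 8.88 in control lung endothelial cells. No array of a group overlapped those of another, but thymus and LSEC both lay under the dim limit of 6.38, so the sizes against them are uncertain. The level was lower in control LSEC than in control lung endothelial cells by a log2 difference of -2.92 ± 0.16 (SE), 7.55-fold (limma adjusted p = 5e-07), and lower in control thymus than in lung by -3.78 (limma adjusted p = 2.27e-08). The other Meis1 probe sets did not follow it. Control LSEC and control lung endothelial cells differed by -0.06 on 1443260_at (interval -0.30 to 0.17, limma adjusted p = 0.675), and on 1459423_at the difference was turned round, 0.65 higher in LSEC (limma adjusted p = 0.0153). Over the 14 arrays 1450992_a_at correlated at r = 0.749 with 1443260_at and at -0.537 with 1459423_at. The files do not place these probe sets on Meis1 transcripts, so the gene's level in the endothelial samples depends on which is read.

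Lung endothelial samples also differed from LSEC in RNA of other cells. The summed level of 9 mesenchymal and mural markers (log2 of the sum of antilogs) was 11.74 to 12.03 in control LSEC and 14.67 to 14.84 in control lung endothelial cells, and that of 5 lung epithelial markers was 8.86 to 9.26 in control LSEC and 13.33 to 13.35 in control lung. No marker of either list stood at 0. The part of these cells in the Meis1 level was not tested. In such mixed samples, fewer cells of a type and less RNA per cell cannot be told apart.

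Meis2 encodes the MEIS protein of heart and limb development. On 1417129_a_at its log2 level was 5.56 and 5.39 in control thymus, 9.97, 10.01 and 9.60 in control LSEC, and 7.55 and 7.38 in control lung endothelial cells. LSEC stood highest and thymus lowest, with no overlap, and only thymus lay under the dim limit. On 1457632_s_at, where all groups lay above it, the levels were 7.11 and 6.89 in thymus, 10.19, 10.16 and 9.86 in LSEC and 8.07 and 8.02 in lung. There the difference of control LSEC from control lung was 2.02 ± 0.11 (SE), 4.07-fold (limma adjusted p = 4.39e-07), and that of control thymus from control LSEC was -3.07, 8.42-fold lower (limma adjusted p = 1.94e-09). The 3 Meis2 probe sets above the dim limit in both were higher in LSEC than in lung, by 2.02 to 2.39. On 1440091_at, tested through LSEC alone, the difference was 1.27. The 3 brighter ones correlated at r of 0.985 to 0.994 with each other over the arrays, and the dimmer 1440091_at at 0.852 to 0.887 with them. On 1440091_at control thymus and control lung endothelial cells differed by -0.15 (interval -0.85 to 0.54), both under the dim limit.

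Meis3, a less studied MEIS gene with 1 probe set, was 7.87 and 7.32 in control thymus, 6.72, 6.83 and 6.75 in control LSEC and 7.41 and 7.45 in control lung endothelial cells. LSEC arrays were the lowest, and those of thymus and lung overlapped. Control thymus was higher than control LSEC by 0.83 (limma adjusted p = 0.000462), control LSEC lower than control lung by -0.66 (limma adjusted p = 0.00443), and thymus and lung differed by 0.17 (interval -0.19 to 0.52).

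Pbx2 encodes a widely expressed PBX protein, the DNA-binding partner of MEIS and HOX. On 1418893_at it was 10.01 and 9.95 in control thymus, 7.26, 7.66 and 7.43 in control LSEC and 8.72 and 8.79 in control lung endothelial cells. The order of thymus, lung and LSEC held without overlap. Control thymus exceeded control LSEC by 2.53 ± 0.15 (SE), 5.77-fold (limma adjusted p = 6.81e-08). The 3 Pbx2 probe sets varied together over the arrays (r of 0.927 to 0.987), but 1449261_at had the smaller differences, with 0.96 between control thymus and control LSEC. On that probe set, LSEC and lung, 8.05 to 8.33 and 8.27 to 8.46, overlapped and did not pass (limma adjusted p = 0.36).

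Pbx3 encodes a PBX protein known for its part in nervous system development and, with MEIS1 and HOXA9, in leukaemia. Its 2 probe sets differed. On 1447640_s_at it was 5.51 and 5.82 in control thymus, 7.77, 7.72 and 7.56 in control LSEC and 7.88 and 8.0 in control lung endothelial cells, so that thymus stood apart and under the dim limit. Control thymus was lower than control LSEC by -2.02 (limma adjusted p = 2.39e-07), while control LSEC and control lung differed by -0.26 (limma adjusted p = 0.167). On 1421193_a_at all control arrays lay between 7.82 and 8.29 and overlapped. There the difference of control thymus from control LSEC was 0.04 (interval -0.24 to 0.32). The pair correlated at r = 0.468 over the arrays.

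Pknox1 encodes PREP1, the MEIS relative that also binds PBX. On 1437470_at it was 9.49 and 9.91 in control thymus, 8.23, 8.16 and 7.72 in control LSEC and 7.74 and 7.50 in control lung endothelial cells. Thymus stood above the endothelial samples, which overlapped on this probe set. On 1421233_at and 1450172_at the control LSEC arrays lay above those of control lung without overlap. Its 3 probe sets correlated at r of 0.917 to 0.969 and all passed between control thymus and control LSEC, with log2 differences of 0.83, 1.11 and 1.66. Between control LSEC and control lung the 3 differences were 0.28 to 0.42, and none passed (limma adjusted p = 0.0579 to 0.131).

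**Figure D2:**
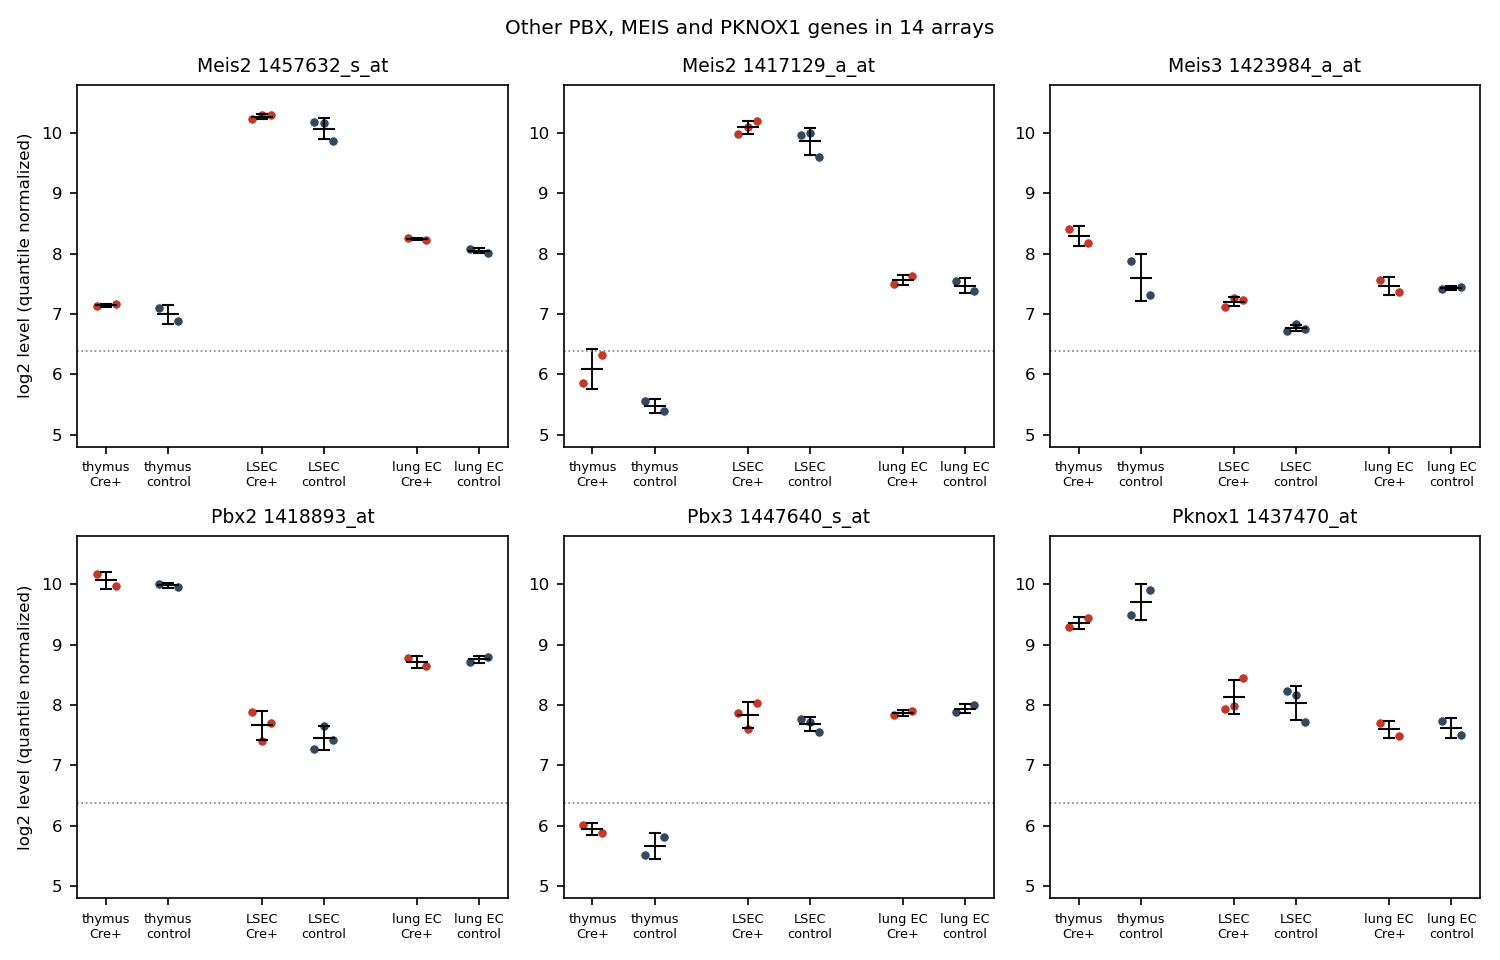
Log2 levels of 6 probe sets of Meis2, Meis3, Pbx2, Pbx3 and Pknox1 (vertical axis) by group, with a point for each array (red Cre+, dark control) and the mean with its SD in black; the dotted line is the dim limit of 6.38. Each gene is shown on the probe set whose control group means span most, and Meis2 also on its brightest, so the tissue differences shown are the largest of each gene. Pbx3 1421193_a_at, on which the control groups overlapped, is not shown. Meis2 lies highest in LSEC, and Pbx2 and Pknox1 in thymus.

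The Cre+ arrays, which are other samples, gave 14 passing probe sets between thymus and LSEC (62.5% of all tested), 13 between thymus and lung (56.9%), and 8 between LSEC and lung (36.8%). The 14 and the 8 again include Meis2 1440091_at, tested through LSEC alone. In these arrays Meis2 1457632_s_at was 10.22, 10.29 and 10.30 in LSEC and 8.25 and 8.23 in lung endothelial cells, a log2 difference of 2.03 (limma adjusted p = 4.43e-07). Pbx2 1418893_at was higher in Cre+ thymus than in Cre+ LSEC by 2.40 (limma adjusted p = 1.14e-07). Meis1 1450992_a_at was lower in Cre+ LSEC than in Cre+ lung endothelial cells by -1.57, 2.97-fold (limma adjusted p = 3.68e-05), where the control difference was -2.92.

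The second comparison asked which cofactors differ between Cre+ and control LSEC. Meis1 was higher in Cre+ LSEC on 1450992_a_at, and it was the only 1 of the 16 probe sets to pass, 6.25% of them beside 4.3% of all probe sets tested, or 2.15% counting only those higher. Its log2 level was 7.11, 6.92 and 7.60 in Cre+ LSEC, against 5.91, 5.82 and 5.82 in control LSEC. Every Cre+ array lay above every control array. The means were 7.21 ± 0.35 in Cre+ and 5.85 ± 0.05 in control LSEC (SD, n = 3 each), a log2 difference of 1.36 (interval 1.04 to 1.68), 2.57-fold (limma adjusted p = 0.000565). The interval uses 1 estimate of spread shared by all 6 groups, while the SD was larger in Cre+ than in control LSEC. It may thus be too narrow for LSEC. Control LSEC lay under the dim limit, so the size of the rise is uncertain. Adjusted p ranged from 0.000145 to 0.0258 over the 22 alternatives run for this probe set, and without Cre+ replicate 3 the difference was 1.16.

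The other 2 Meis1 probe sets did not show the rise. On 1443260_at Cre+ and control LSEC differed by 0.05 (interval -0.16 to 0.25). On 1459423_at the levels were 7.64, 7.90 and 7.78 in Cre+ LSEC against 8.20, 8.22 and 8.08 in control LSEC. These arrays did not overlap either, but in the opposite direction, with a log2 difference of -0.39 that did not pass (limma adjusted p = 0.227). Since 1459423_at is the brightest Meis1 probe set, reading each gene from its brightest probe set leaves no member passing in LSEC.

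**Figure D3:**
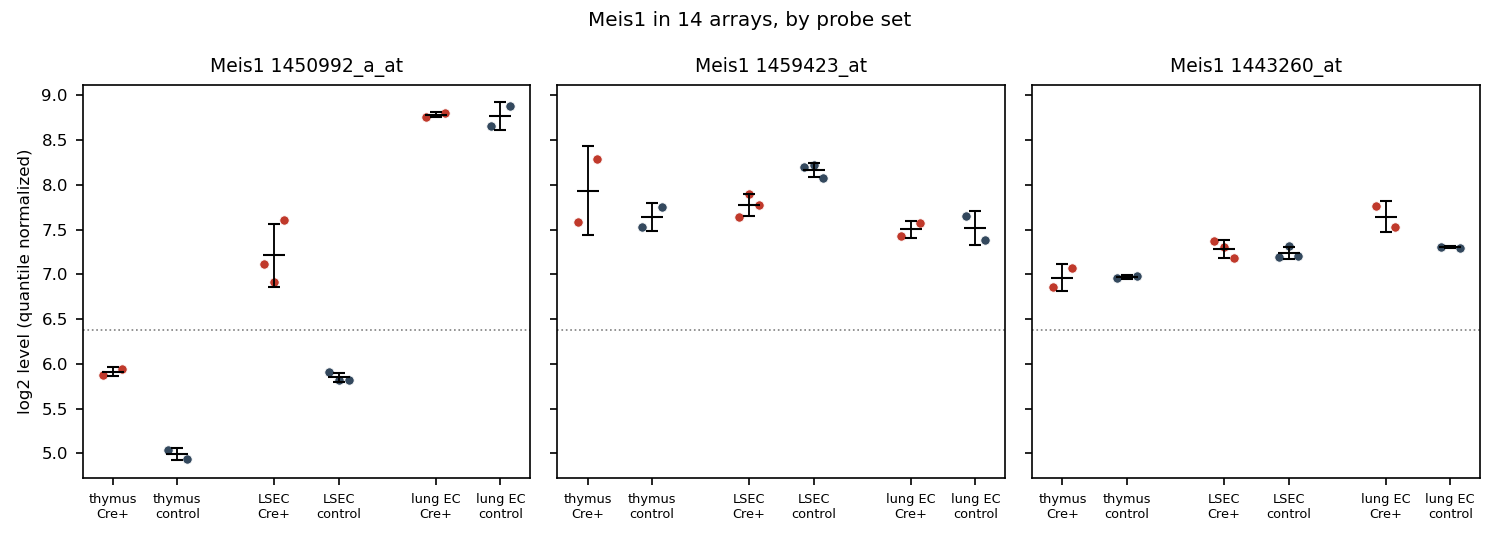
Log2 level of Meis1 (vertical axis) on its 3 probe sets in the 6 groups, with a point for each array (red Cre+, dark control) and the mean with its SD in black; the dotted line is the dim limit of 6.38. On 1450992_a_at Cre+ LSEC lie at 6.92 to 7.60, between control LSEC at 5.82 to 5.91 and lung endothelial cells at 8.66 to 8.88, while the other probe sets do not show this order.

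Markers of several cell types moved with genotype in the same LSEC arrays. Mast cell markers were higher: 3 of the 3 tested of 4 passed, and the summed level of the 4 was 9.35 to 10.85 in Cre+ LSEC, against 7.14 to 7.54 in control LSEC. The means of these 3 reached the dim limit in Cre+ LSEC alone, so they were tested only through the group where they are high. The mean level of the 3 was 9.04, 8.91 and 7.53 in Cre+ LSEC, against 5.55, 5.92 and 5.49 in control LSEC. The untested mast cell marker Mcpt4, at 0 on a Cre+ array, averaged 2.39 in Cre+ LSEC and 2.35 in control LSEC. Of 5 LSEC markers, 4 were lower, with a summed level of 11.40 to 12.23 in Cre+ LSEC, against 13.45 to 14 in control LSEC. Of 8 general endothelial markers 1 was lower, with sums of 13.44 to 13.68 in Cre+ and 13.70 to 13.94 in control LSEC. Of 5 platelet and megakaryocyte markers, cells known to use MEIS1, none of the 4 tested passed, and the sum was 10.67 to 11.37 in Cre+ and 10.26 to 11.08 in control LSEC. The mean level of the 5 did not overlap, with 7.73 to 8.0 in Cre+ and 7.41 to 7.68 in control LSEC. That of the 4 tested did overlap, with 8.08 to 8.3 in Cre+ and 7.87 to 8.25 in control LSEC. Their differences were 0.60 for Pf4, 0.13 for Itga2b, 0.03 for Gp9 and -0.23 for Gp1bb. The fifth, the platelet chemokine gene Ppbp, was too dim to be tested. It was 6.80, 6.07 and 6.93 in Cre+ LSEC, against 5.22, 5.59 and 5.42 in control LSEC. These Ppbp levels did not overlap, as was so for 21.8% of all probe sets tested. None of 5 macrophage markers and none of 9 mesenchymal and mural markers passed, the mesenchymal ones with sums of 11.67 to 11.90 in Cre+ and 11.74 to 12.03 in control LSEC. No marker of these other lists was at 0 in LSEC. The part of these cells in the Meis1 difference was not tested.

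Meis3 came next by unadjusted p. It was 7.12, 7.26 and 7.24 in Cre+ LSEC, against 6.72, 6.83 and 6.75 in control LSEC, without overlap. The difference was 0.44 (interval 0.15 to 0.73), and it did not pass over all probe sets (limma adjusted p = 0.0942). Meis2, highest in this tissue, was 10.22, 10.29 and 10.30 in Cre+ and 10.19, 10.16 and 9.86 in control LSEC on 1457632_s_at, a difference of 0.20 (interval -0.02 to 0.42). Its dim probe set 1440091_at stood 0.72 higher with overlapping groups (limma adjusted p = 0.161). The 3 Pbx2 differences were -0.09 to 0.21, the 2 of Pbx3 0.15 and 0.21, and the 3 of Pknox1 -0.21 to 0.09, and none passed. At an unadjusted p under 0.05 there were 4 members, beside 18.1% of all tested. Cre+ and control arrays did not overlap on 5 of 16 probe sets, beside 21.8% of all tested, and the median log2 difference was 0.162 over the members and 0.00929 over all probe sets tested.

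In lung endothelial cells no member passed, beside 0.0195% of all probe sets tested. Meis1 1450992_a_at was 8.76 and 8.80 in Cre+ and 8.66 and 8.88 in control lung endothelial cells, a difference of 0.01 (interval -0.38 to 0.41). The arrays overlapped, and the upper bound of the interval lay under the LSEC difference, whose own error this leaves out. The LSEC and lung effects are tested against each other in the third comparison below. Meis1 1443260_at, 7.76 and 7.52 in Cre+ against 7.31 and 7.29 in control, was the 1 member with an unadjusted p under 0.05, beside 4.71% of all (difference 0.34, limma adjusted p = 0.867). The other differences ran from -0.07 to 0.27. Groups did not overlap on 4 of 16 probe sets, beside 39.1% of all tested.

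In thymus no member passed either, beside 0.328% of all probe sets tested, although 6 of 16 had an unadjusted p under 0.05, beside 10.7% of all. The largest difference was again on Meis1 1450992_a_at, 5.88 and 5.95 in Cre+ thymus against 5.04 and 4.94 in control thymus. The groups did not overlap, and the difference was 0.92 (interval 0.53 to 1.32, limma adjusted p = 0.0712), with all levels under the dim limit. Meis3 was 8.41 and 8.17 in Cre+ against 7.87 and 7.32 in control thymus, a difference of 0.69 (limma adjusted p = 0.13), above the limit. The 4 Meis2 differences were 0.15 to 0.83, those of 3 probe sets under the limit in both groups. Pknox1 pointed the other way on its 3 probe sets, with -0.34 to -0.46, and on 1450172_at it was 8.48 and 8.82 in Cre+ against 8.88 and 9.34 in control thymus (limma adjusted p = 0.347). Groups did not overlap on 13 of 16 probe sets, beside 41.8% of all tested.

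Marker levels of other cell types in the thymus were compared as well. The summed level of 9 mesenchymal and mural markers was 12.79 to 12.92 in Cre+ thymus, against 12.46 to 12.54 in control thymus, and 1 of the 9, Col3a1, passed. That of 5 thymic epithelial markers was 13.36 to 13.48 in Cre+ and 12.97 to 13.24 in control thymus, and none passed. No marker of either list was at 0, and their part in the MEIS differences was not tested.

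**Figure D4:**
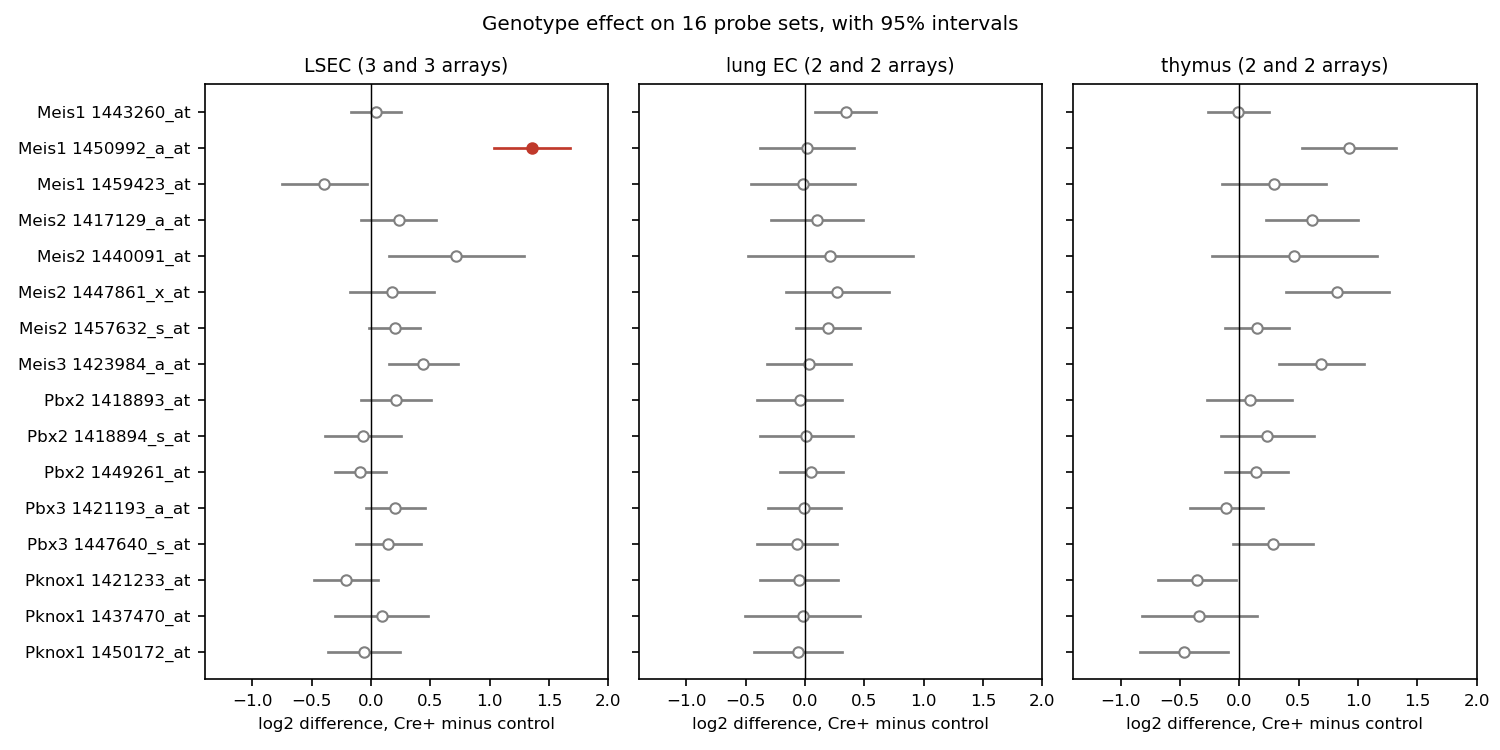
Log2 difference of Cre+ minus control (horizontal axis) for the 16 probe sets in each tissue, with 95% intervals that are not adjusted for the number of probe sets; a filled red point passed at an adjusted p under 0.05. Meis1 1450992_a_at in LSEC, at 1.36, is the point that passed.

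The third comparison set the genotype effects of the tissues against each other. On Meis1 1450992_a_at the LSEC effect exceeded the lung effect by 1.35 (interval 0.83 to 1.86, limma adjusted p = 0.0493), the only 1 of the 16 probe sets to pass, beside 0.256% of all tested (0.0941% higher). The adjusted p lay close to the threshold and passed it with only 6 of 23 alternatives; with the values as deposited it was 0.053. The LSEC effect exceeded the thymus effect by 0.44 (interval -0.07 to 0.95, limma adjusted p = 0.411), and no member passed there, beside 1.17% of all tested. Between lung and thymus no member passed either, beside 0.026%, the Meis1 value being -0.91 (limma adjusted p = 0.469). At an unadjusted p under 0.05 there was 1 member for LSEC against lung, beside 9.6% of all tested, 2 for LSEC against thymus, beside 15%, and 2 for lung against thymus, beside 6.62%. For Meis3 the LSEC effect differed from the lung effect by 0.41 (interval -0.05 to 0.87) and from the thymus effect by -0.25 (interval -0.71 to 0.21).

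Among the other TALE homeobox genes on the array, 8 of 11 were tested, and 1 rose and 1 fell in LSEC, where 4.3% of all probe sets passed. Tgif2 rose to 7.88 ± 0.23 in Cre+ LSEC, against 7.28 ± 0.05 in control LSEC (SD, n = 3 each, limma adjusted p = 0.0113), and Tgif1 fell to 8.50 ± 0.26, against 9.11 ± 0.09 (limma adjusted p = 0.0185). Both encode TALE repressors of retinoid and SMAD signalling. The median over the 8 genes was 0.116. Of 21 HOX genes tested of 33, Hoxb5 alone passed in LSEC, lower by -1.79, a share near that of all probe sets, with a list median of 0.01. Of 17 partners and reported targets tested of 27, 3 rose and 2 fell in LSEC, beside 4.3% of all probe sets, with a median of -0.03. These lists hold 1 probe set per gene. A fit with 1 value per gene called 764 of 14262 genes in LSEC. The cyclin D1 gene Ccnd1 rose by 0.91 (10.78 ± 0.13 in Cre+ and 9.87 ± 0.25 in control LSEC), and the falls were those of Cdkn2b, a cell cycle inhibitor gene (-1.84), and Spry2, a feedback inhibitor of receptor tyrosine kinases (-1.47). The other rises, added outside the naming rule with their values known, were Hif1a (0.54) and the deacetylase gene Hdac1 (0.30). No gene of the 3 lists passed in lung endothelial cells or thymus. Pbxip1, which encodes a PBX-interacting protein, differed by -0.01 in LSEC (limma adjusted p = 0.968).

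The genes whose levels were most like those of each member over the 14 arrays were sought among 14262 genes, and such correlations include the differences between tissues. For Pbx2 (1418893_at) they were Cab39 and Cep250 (Pearson r = 0.993 each), for Meis2 (1457632_s_at) Car8 and Clptm1l (0.996 each), and for Pknox1 (1437470_at) Pom121 (0.985) and Gabpb2 (0.984). For Meis3 they were Zfp810 (0.953) and Neat1 (0.941). For Meis1, read on its brightest probe set 1459423_at, they were Dhrs2 (0.902) and Slc25a35 (0.878), and for Pbx3 (1421193_a_at), which hardly varied, Cox15 (0.82) and Prrg4 (0.814).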

How the data were processed

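The deposited table holds log2 values per probe set, 1 column per array, as the authors processed them. The sources used here state neither the log base nor the summarization, background correction and scaling, and log2 was read from the range of the values. The array medians spread over 0.282, so the arrays were quantile normalized. Names come from the array's annotation, and 34754 of 34958 probe sets with 1 symbol matched a gene identifier of GRCm38.p6.

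All 14 arrays entered 1 linear model with a mean for each of the 6 groups, fitted with limma 3.58.1 (lmFit, then eBayes without trend or robust) under R 4.3.3, with 2.94 prior degrees of freedom and 8 residual. A probe set was tested where its brightest tissue averaged at or above the 40th percentile (30821 did), and Benjamini-Hochberg adjustment was made within each contrast. The fit was tested on simulated data. With 2 or 3 arrays per group, their number limits the precision.

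The members and lists were chosen with earlier results of these data known. Named were all members, up to 3 passing genes with the largest change in each list, and the 2 genes most correlated with each member. Pbxip1 was counted among the partners, not the TALE genes, as it has no homeobox. A listed gene stood by its brightest probe set. Alternatives were median centring, values as deposited, no filter, a filter at the 60th percentile, 1 value per gene, eBayes with trend and robust, weights per array, a fit of only the arrays compared, a replicate block, Cre+ in place of control arrays for tissue differences, and leaving out each array. Same-numbered Cre+ and control arrays were checked for pairing.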

Additional observations from a re-analysis of the deposited data

Results flagged for a closer look

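The Meis1 probe set 1450992_a_at was singled out because the difference between its genotype effects in LSEC and in lung endothelial cells passed the test of that difference: 1.35 on the log2 scale (limma adjusted p = 0.0493). That test passed under only 6 of 23 alternatives. The effect was 1.36 in LSEC, where all 3 Cre+ arrays lay above all 3 control arrays, and 0.01 in lung endothelial cells, where the arrays overlapped. The other 2 Meis1 probe sets gave -0.30 and -0.38 for the same difference and did not pass. No group had the 4 arrays needed to look for a single array far from the rest.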

How the results depend on the processing

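Of 3261 member values under alternatives, 3196 kept their side of the threshold, 46 lost it, 18 gained it, and 1 called value changed sign: Meis1 1459423_at, lower in control thymus than in control LSEC, stood 0.1594 higher in Cre+ thymus than in Cre+ LSEC. The Meis1 rise in LSEC on 1450992_a_at passed under all 22 alternatives that held this probe set. With 1 value per gene, which keeps 6 of the 16 probe sets, 0 members passed in LSEC and 0 for the LSEC minus lung difference, and 4, 5 and 3 passed between control LSEC and lung, thymus and LSEC, and thymus and lung. The LSEC minus lung count was also 0 with no filter, the values as deposited, only the arrays compared, and the replicate block (adjusted p = 0.225 for Meis1). The cause was not tested. With trend and robust on, 1 member, Meis1 1450992_a_at, passed in thymus (adjusted p = 0.0492). Leaving out single arrays gave 1 to 2 members in LSEC, 0 to 1 in thymus, 0 to 1 for LSEC minus lung, where 12 of 14 such fits gave 0, and 0 to 1 for LSEC minus thymus. Without a thymus control array, Meis3 passed in LSEC as well, and without LSEC Cre+ replicate 2 or 3, Meis1 1450992_a_at passed in thymus. With 1 array left in a group, its spread was taken from the other groups.

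Same-numbered Cre+ and control arrays deviated from their group means with correlations of -0.193 to -0.0466 in LSEC, where 0 of 6 arrays correlated best with their own number, -0.197 in lung and 0.0491 in thymus, so the numbers were not taken to pair samples. Under the replicate block, calls over all probe sets were 502 in LSEC, against 1326 without it. With the lung numbers crossed, chosen after seeing the data, 0 members passed in lung. Scaling moved the median of all probe sets between control thymus and control LSEC to 0.103 as deposited and -0.105 with median centring, against -0.0324. Levels under the dim limit of 6.38 make fold sizes uncertain.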
